A study of Mus musculus with 14 samples.

Results

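The Notch pathway genes described here are 4 receptors (Notch1, Notch2, Notch3 and Notch4), 3 ligands (Jag1, Jag2 and Dll4) and 3 target genes (Hes1, Hey1 and Heyl). They are the 10 listed symbols found among the 47729 genes of the count tables, each through 1 Ensembl identifier, and all 10 passed the filter on low counts that left 17926 genes for testing. Messenger RNA of whole mouse kidney was sequenced in 14 libraries. The groups were 3 libraries of untreated wild-type kidney, 4 of wild-type kidney with unilateral ureteral obstruction (UUO), 3 of untreated kidney labelled SMOC2 transgenic and 4 of kidney labelled SMOC2 transgenic with UUO. UUO closes the ureter of a single kidney and leads to tubule injury and fibrosis, and the kidneys here were taken at 7 days. Untreated kidney is called normal, and libraries labelled SMOC2 transgenic are called SMOC2-labelled. The series title concerns SMOC2, a secreted matrix protein, in kidney fibrosis.

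The sources used here do not name the promoter, the cell type or the line of the transgene, nor strain, age or sex for each group. A treatment text attached to the samples speaks of male Balb/c mice that received folic acid, while the genotype, treatment and design labels speak of UUO, and the latter set the groups. Libraries held 19483994 to 30033405 counts. Smoc2 itself was at 25.2 ± 16.1 CPM (counts relative to the scaled library size; mean and SD, n = 3) in wild-type normal and 21.8 ± 9.66 CPM (SD, n = 3) in SMOC2-labelled normal kidney. UUO kidney had 146.9 ± 11.4 CPM (SD, n = 4) of it under the wild-type and 96.1 ± 18.5 CPM (SD, n = 4) under the transgenic label. Between labels, the log2 difference of Smoc2 was -0.22 without obstruction (edgeR adjusted p = 0.8502) and -0.61 in UUO kidney (edgeR adjusted p = 0.389). All 4 SMOC2-labelled UUO libraries were below every wild-type UUO library in Smoc2, although the difference did not pass the test. Smoc2 counts thus show no excess under the transgenic label, and each genotype direction below is between labels. The tissue label was set beside proximal tubule, loop and distal tubule, and podocyte markers, and none of these 16 genes was at 0 throughout a group. T cell and urothelium markers were not at 0 throughout a group either, so this alone cannot check the tissue. In wild-type normal libraries proximal tubule markers summed to 12340 to 15440 CPM, and T cell markers to 3.79 to 6.93 CPM. Whether libraries of a group are separate animals is not stated, and p-values therefore measure the spread between libraries only.

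Notch receptors are membrane proteins that bind ligands of the Jagged and Delta-like families on neighbouring cells. Binding lets ADAM proteases and then gamma-secretase cut the receptor, and the freed intracellular part enters the nucleus, where it joins the DNA-binding protein RBPJ and Mastermind coactivators. Well-known targets are the HES and HEY repressors, which bind DNA at E-box and N-box sequences. In blood vessels, NOTCH3 is known as the receptor of smooth muscle cells and pericytes, DLL4 and NOTCH4 as endothelial proteins, and HEYL as a target found in vascular mural cells.

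All 10 genes are protein coding. On build mm10, Notch1 (ENSMUSG00000026923) lies at chr2:26457903-26516663, Notch2 (ENSMUSG00000027878) at chr3:98013527-98150361, Notch3 (ENSMUSG00000038146) at chr17:32120820-32166852 and Notch4 (ENSMUSG00000015468) at chr17:34564268-34588503. Jag1 (ENSMUSG00000027276) lies at chr2:137081456-137116644, Jag2 (ENSMUSG00000002799) at chr12:112907819-112929776 and Dll4 (ENSMUSG00000027314) at chr2:119325784-119335962. Hes1 (ENSMUSG00000022528) lies at chr16:30064384-30067796, Hey1 (ENSMUSG00000040289) at chr3:8663359-8667256 and Heyl (ENSMUSG00000032744) at chr4:123233556-123249875. Genes on the opposite strand overlap exons of Notch1, Notch3 and Dll4, and a gene on the same strand overlaps an exon of Notch2. The strand setting of the counting is not given in the sources used here, so reads of such neighbours cannot be told apart without it. The neighbours' own counts were below those of the genes they overlap. Gm17276, the partner of Notch3, had 1 to 17 counts per library against 432 to 1583 for Notch3. Gm14207, the partner of Dll4, had 28 to 85 against 250 to 544. The partners of Notch1, 0610009E02Rik and Gm13568, had 19 to 48 and 0 against 507 to 1331. These counts do not show how many reads in shared exons were counted for either gene.

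RefSeq promoter windows (build GRCm38.p6, 250 bases before to 50 after the start site) were given for 7 of the 10 genes, the exceptions being Hes1, Hey1 and Heyl. Each window was searched on both strands for the core of the RBPJ site, TGGGAA, which was found in 0 of 7 windows, beside 25.6% of all 32851 windows. It was also searched for the class of sequences written CACGNG, which leaves out some E-box and N-box sites and is not limited to them. This class was found in 5 of 7 windows, beside 27.5% of all. Its member CACGTG was found in 0 of 7 windows, beside 7.15% of all. The upstream 250 bases of the 7 genes had a GC content of 57.2% to 87.2%, which was not matched in the set of all windows. Matches of TGGGAA and of the CACGNG class can share letters where they abut. The windows of Notch3, the receptor that rose, and of Dll4, a ligand that did not pass the test, each held a match of this class at a similar distance from the start, and their upstream 250 bases are shown with that match in capitals. The Notch3 sequence is from chr17:32166891-32167140 on the minus strand, with the match beginning at position -204 (-1 is the base before the start site). The Dll4 sequence is from chr2:119325534-119325783 on the plus strand, with the match beginning at position -195.
Notch3: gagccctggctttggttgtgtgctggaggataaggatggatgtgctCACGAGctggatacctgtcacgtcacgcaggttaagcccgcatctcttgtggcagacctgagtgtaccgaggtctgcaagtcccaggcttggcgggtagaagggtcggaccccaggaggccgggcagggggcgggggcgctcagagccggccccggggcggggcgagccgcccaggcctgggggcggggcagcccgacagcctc
Dll4: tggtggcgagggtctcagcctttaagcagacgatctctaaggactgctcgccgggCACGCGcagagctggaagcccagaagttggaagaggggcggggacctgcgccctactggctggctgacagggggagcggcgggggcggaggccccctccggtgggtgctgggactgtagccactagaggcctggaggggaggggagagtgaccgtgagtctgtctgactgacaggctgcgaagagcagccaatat
A match describes these letters only, and the counts carry no measurement of binding at them.

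With TMM scaling (trimmed mean of M-values, the main setting), 1 receptor, Notch3, and 1 target, Heyl, rose after obstruction in both wild-type and SMOC2-labelled kidney, whereas upper-quartile scaling added Jag1 in each and unscaled library sizes gave 9 rises in wild type and 7 in SMOC2-labelled kidney. The other 8 genes passed the test in neither genotype with TMM scaling, and 0 of the 10 fell under these 3 settings. Over all genes tested, 61.1% changed and 31.3% rose in wild type, and 62.8% changed and 32.5% rose in SMOC2-labelled kidney (edgeR, adjusted p under 0.05). The median change of the 10 genes was 0.14 on the log2 scale in wild type and 0.01 in SMOC2-labelled kidney, where the medians of all genes were 0.045 and 0.036. The median size of the change, taken without sign, was 0.19 and 0.11 for the 10 genes and 0.57 and 0.61 for all genes.

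**Figure D1:**
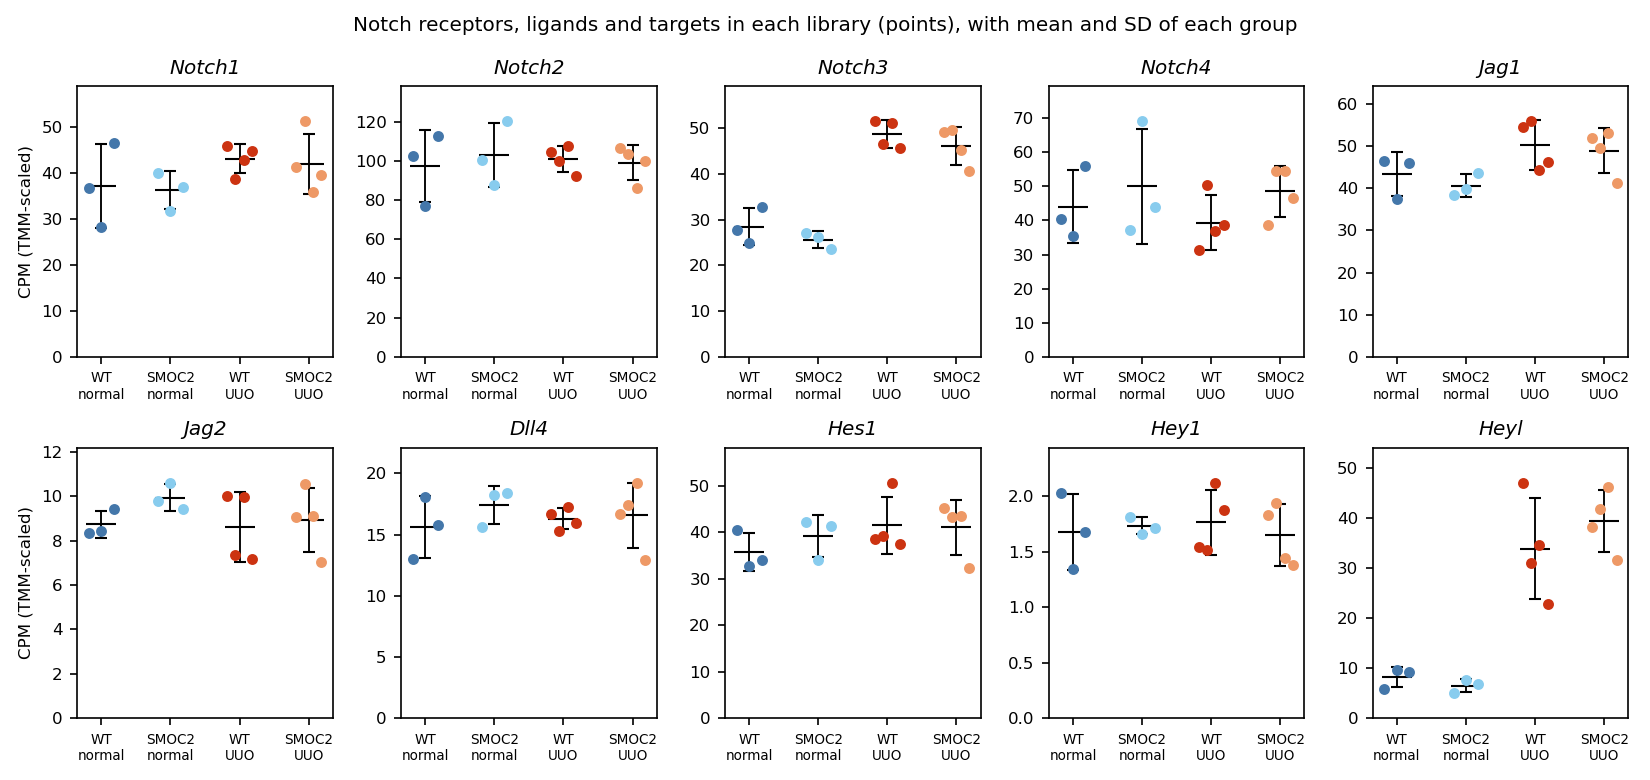
Level of each of the 10 Notch genes in CPM on TMM-scaled library sizes (y axis, from 0) in the 4 groups (x axis); points are libraries, and bars give the mean and SD of 3 or 4 libraries. The UUO libraries of Notch3 (40.6 to 51.5 CPM) and Heyl (22.9 to 47.0 CPM) lie above all normal libraries, and those of the other 8 genes overlap them.

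Among the receptors, Notch3 had 27.8, 24.9 and 32.8 CPM in the wild-type normal libraries and 51.5, 46.6, 51.1 and 45.7 CPM in the wild-type UUO libraries. In SMOC2-labelled kidney it had 27.1, 26.3 and 23.5 CPM in the normal and 49.3, 49.6, 45.2 and 40.6 CPM in the UUO libraries. All 8 UUO libraries lay above all 6 normal libraries, and the highest normal value was still below the lowest UUO value. Notch3 rose 1.71-fold in wild type (log2 0.77, SE 0.10, 95% interval 0.55 to 0.996, edgeR adjusted p = 1.84e-05). It rose 1.80-fold in SMOC2-labelled kidney (log2 0.85, SE 0.11, 95% interval 0.63 to 1.07, edgeR adjusted p = 7.53e-06). In a bulk sample, more cells of a type and more RNA per cell cannot be told apart.

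Notch1, Notch2 and Notch4 did not pass the test in either genotype. Notch1, the receptor best known from T cell and arterial development, was at 28.3 to 46.5 CPM over the 6 normal libraries and 35.9 to 51.3 CPM over the 8 UUO libraries. Its change was 0.21 on the log2 scale in wild type (95% interval -0.12 to 0.54, edgeR adjusted p = 0.254) and 0.21 in SMOC2-labelled kidney (95% interval -0.12 to 0.54, edgeR adjusted p = 0.242). The wild-type result turned on a library: without wild-type normal library 3 the change was 0.40 (edgeR adjusted p = 0.0364). Notch2, needed for the formation of proximal nephron segments and podocytes, was at 77.0 to 120.1 CPM in normal and 86.1 to 107.3 CPM in UUO libraries, with changes of 0.05 (95% interval -0.23 to 0.33) and -0.05 (95% interval -0.33 to 0.23). Notch4, the endothelial receptor, ranged from 35.5 to 69.1 CPM in normal and from 31.4 to 54.5 CPM in UUO libraries. Its intervals of -0.64 to 0.31 in wild type and -0.52 to 0.43 in SMOC2-labelled kidney leave room for changes in either direction, and without wild-type normal library 3 its wild-type change went from -0.16 to 0.05.

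Among the ligands, none passed the test in either genotype. Jag1, a ligand found on epithelial, endothelial and smooth muscle cells, came nearest. It had 46.6, 37.4 and 46.1 CPM in wild-type normal libraries and 54.7, 55.9, 44.3 and 46.3 CPM in wild-type UUO libraries. In SMOC2-labelled kidney it had 38.3, 39.9 and 43.7 CPM in normal and 52.0, 49.7, 53.0 and 41.2 CPM in UUO libraries. The groups overlapped in both genotypes, with 2 of 4 wild-type and 3 of 4 SMOC2-labelled UUO libraries above all normal libraries of their genotype. The change was 0.21 on the log2 scale in wild type (95% interval -0.03 to 0.46, edgeR adjusted p = 0.124) and 0.27 in SMOC2-labelled kidney (95% interval 0.02 to 0.52, edgeR adjusted p = 0.0554). This result depends on the processing. Upper-quartile scaling put Jag1 past the threshold in both (log2 0.33, edgeR adjusted p = 0.0251, and log2 0.39, edgeR adjusted p = 0.0102), and so did unscaled library sizes. In SMOC2-labelled kidney it also passed with the stricter filter (edgeR adjusted p = 0.0451), with only its own groups in the fit (edgeR adjusted p = 0.0386) and without SMOC2-labelled UUO library 4 (log2 0.34, edgeR adjusted p = 0.0156), and without wild-type normal library 2 or wild-type UUO library 2 or 3 (edgeR adjusted p = 0.0407, 0.0440 and 0.0486).

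For Jag2 and Dll4 the UUO libraries spread over the range of the normal ones. Jag2, the least abundant of the 3 ligands, was at 8.33 to 10.6 CPM in normal and 7.02 to 10.5 CPM in UUO libraries, with changes of -0.02 on the log2 scale (95% interval -0.36 to 0.33) and -0.15 (95% interval -0.50 to 0.19). Dll4, which marks arterial and sprouting endothelium, was at 13.05 to 18.4 CPM in normal and 12.9 to 19.2 CPM in UUO libraries, with changes of 0.06 (95% interval -0.23 to 0.35) and -0.07 (95% interval -0.37 to 0.22). The edgeR adjusted p was 0.933 and 0.421 for Jag2, and 0.717 and 0.656 for Dll4.

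Among the targets, Heyl had the largest change of the 10 genes. It had 5.91, 9.56 and 9.31 CPM in wild-type normal libraries and 47.0, 31.0, 34.6 and 22.9 CPM in wild-type UUO libraries. In SMOC2-labelled kidney it had 5.13, 7.71 and 6.77 CPM in normal and 38.3, 41.8, 46.1 and 31.6 CPM in UUO libraries. The lowest UUO library, wild-type library 4, was still above every normal library. Heyl rose 4.11-fold in wild type (log2 2.04, SE 0.24, 95% interval 1.52 to 2.56, edgeR adjusted p = 6.12e-06) and 6.01-fold in SMOC2-labelled kidney (log2 2.59, SE 0.25, 95% interval 2.04 to 3.13, edgeR adjusted p = 8.53e-07).

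Hes1, a repressor that many tissues express under Notch control, was the most abundant target but did not pass the test. It had 40.5, 32.8 and 34.0 CPM in wild-type normal and 38.5, 39.2, 50.6 and 37.5 CPM in wild-type UUO libraries. In SMOC2-labelled kidney it had 42.3, 34.0 and 41.2 CPM in normal and 45.3, 43.3, 43.4 and 32.3 CPM in UUO libraries. The groups overlapped in both genotypes. The change was 0.21 on the log2 scale in wild type (95% interval -0.08 to 0.51, edgeR adjusted p = 0.196) and 0.07 in SMOC2-labelled kidney (95% interval -0.23 to 0.37, edgeR adjusted p = 0.683). Hey1, a repressor of the same family as Heyl, was at 1.34 to 2.03 CPM in normal and 1.38 to 2.12 CPM in UUO libraries. The 95% interval of its change ran from -0.40 to 0.53 in wild type and from -0.54 to 0.40 in SMOC2-labelled kidney, so changes of either sign within these bounds are not told apart from 0.

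**Figure D2:**
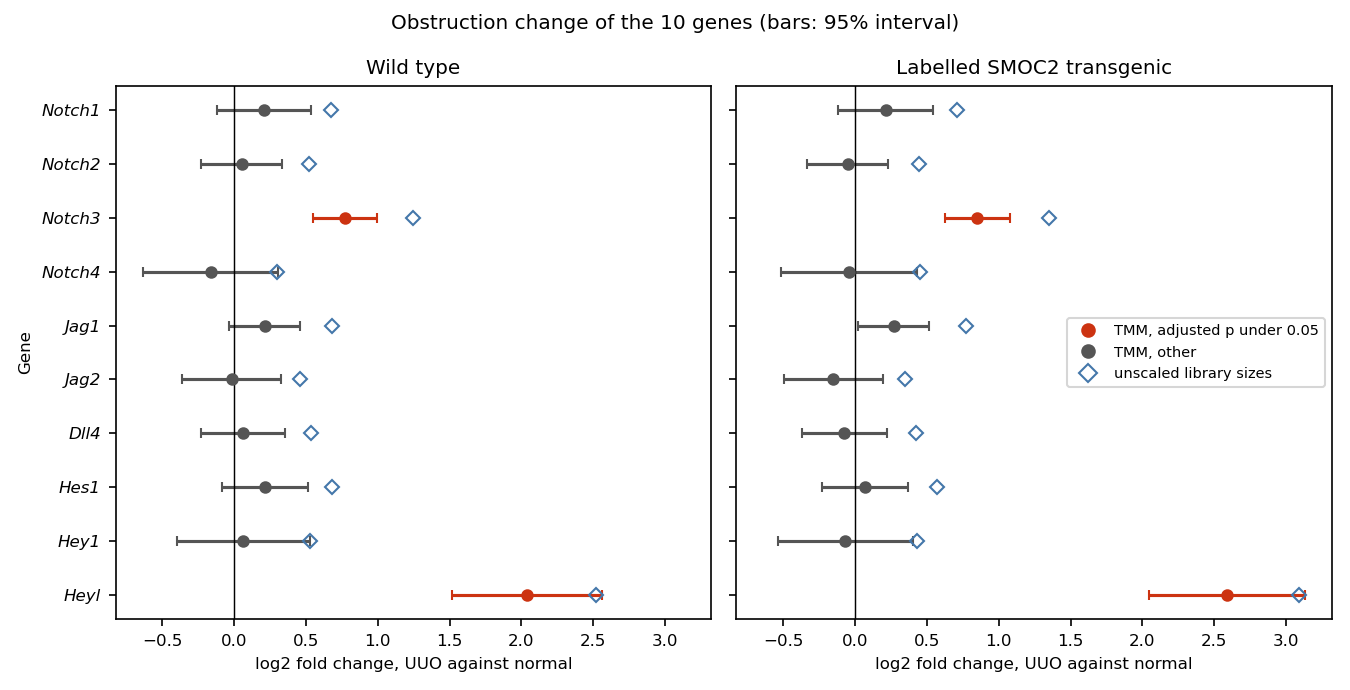
Change of each of the 10 Notch genes (y axis) as the log2 fold change of UUO against normal kidney (x axis) in wild-type and SMOC2-labelled kidney. Circles with 95% intervals use TMM scaling, red where the edgeR adjusted p is under 0.05, and diamonds use unscaled library sizes; only the intervals of Notch3, Heyl and, in SMOC2-labelled kidney, Jag1 leave out 0, and without scaling every point lies above 0.

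The scaling sets where no change lies. The scaling factors were 0.801 to 0.855 in the 6 normal libraries and 1.13 to 1.20 in the 8 UUO libraries, so they separate normal from UUO. Without them the median log2 change of all genes went from 0.045 to 0.515 in wild type and from 0.036 to 0.536 in SMOC2-labelled kidney. The split of all changed genes went from 5603 higher and 5347 lower to 10052 and 2716 in wild type, and from 5817 and 5447 to 10382 and 2804 in SMOC2-labelled kidney. With upper-quartile factors the medians were 0.16 and 0.15, and the splits 6541 and 4514, and 6805 and 4609. Under each scaling the changes of Notch3 and Heyl were above the median change of all genes. On unscaled library sizes they were 1.24 and 2.52 in wild type, where that median was 0.515. In SMOC2-labelled kidney they were 1.35 and 3.09, where it was 0.536. These changes are given without subtracting the median.

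Levels of different genes were compared as CPM per kilobase of exon, since a longer gene yields more reads. In normal kidney the order of the medians over 6 libraries was Hes1 (18.3), Notch2 (9.39), Jag1 (7.17), Notch4 (5.23), Dll4 (4.40), Notch3 (3.30), Notch1 (2.59), Heyl (1.42), Jag2 (1.35) and Hey1 (0.520). In this order the ranges of neighbours overlapped, except between Hes1 and Notch2, between Notch1 and Heyl, and between Jag2 and Hey1. In UUO kidney the order over 8 libraries was Hes1 (20.3), Notch2 (9.43), Jag1 (8.73), Heyl (7.13), Notch3 (5.93), Notch4 (5.28), Dll4 (4.34), Notch1 (2.96), Jag2 (1.30) and Hey1 (0.518). Here only Hes1 and Notch2, Notch1 and Jag2, and Jag2 and Hey1 were neighbours without overlap. Heyl thus went from the range of Jag2 to that of Jag1 and Notch3.

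The make-up of each class shifted with these changes. The share of Notch3 in the summed length-scaled level of the 4 receptors was 16.5% in normal (median of 6 libraries, range 13.2% to 18.5%) and 25.0% in UUO kidney (median of 8 libraries, range 22.0% to 27.5%), with no overlap. By median, Notch2 remained the largest receptor share, at 44.6% and 39.6%, followed in normal kidney by Notch4 at 25.6%, which was at 23.4% after UUO. In SMOC2-labelled normal library 3, however, Notch4 was above Notch2, at 8.57 against 8.14 CPM per kilobase. Among the ligands Jag1 made up 54.8% and 60.9%, Dll4 34.4% and 30.4%, and Jag2 10.03% and 8.88%, each with overlapping ranges. Among the targets the share of Heyl was 7.03% in normal (range 4.501% to 10.2%) and 26.0% in UUO kidney (range 19.1% to 32.2%), and that of Hes1 90.4% and 72.1%, while the length-scaled level of Hes1 overlapped between the states. These shares are descriptions of whole tissue and do not depend on the scaling of libraries. Like the order of levels above, they do depend on the exon length used, which joins all annotated exons of a gene. It was 14232 bases for Notch1, 8089 for Notch3 and 8061 for Notch4, and other lengths were not tested.

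**Figure D3:**
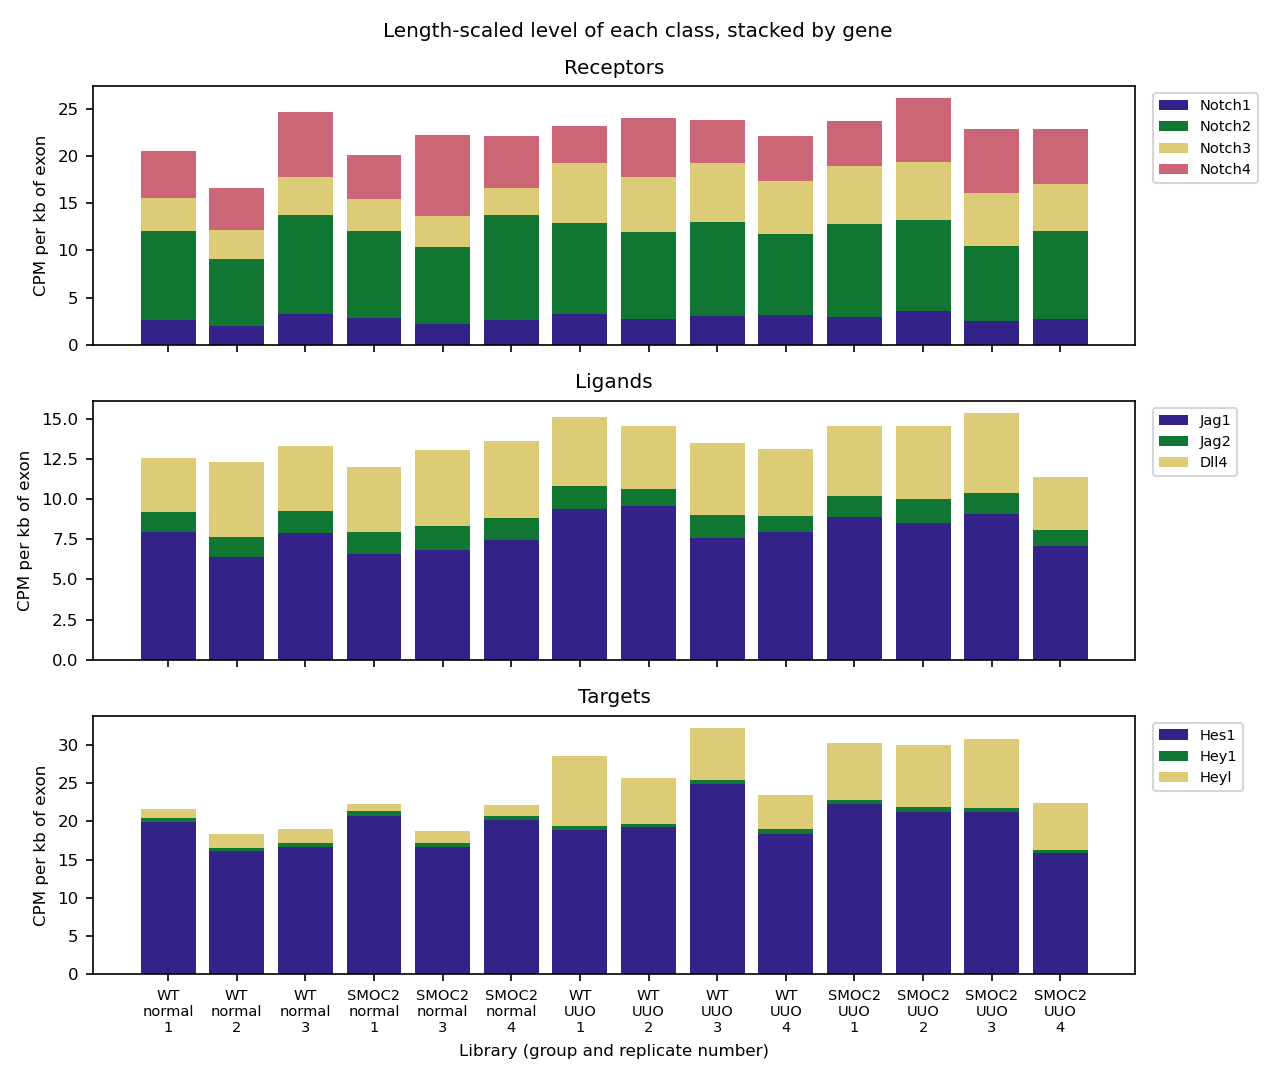
Length-scaled level in CPM per kilobase of exon (y axis, from 0), stacked by gene, for receptors, ligands and targets in each of the 14 libraries (x axis). The Notch3 and Heyl segments are larger in all 8 UUO libraries than in all 6 normal libraries, and Hes1 is the largest target segment in every library.

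Markers of vascular cells were measured beside these genes. Of all genes tested, 61.1% changed and 31.3% rose in wild type, and 62.8% changed and 32.5% rose in SMOC2-labelled kidney. Of 11 pericyte and vascular smooth muscle markers, 8 rose and 1 fell in wild type and 7 rose and 0 fell in SMOC2-labelled kidney, with median log2 changes of 1.55 and 1.73, and 10 and 9 rose with 0 falls on unscaled library sizes. Their summed level was 303.0 to 398.3 CPM over the normal libraries and 900.9 to 1347 CPM over the UUO libraries, and no marker was at 0 throughout a group. Between labels, 1 of the 11 was higher in SMOC2-labelled than in wild-type UUO kidney, beside 0.831% of all genes that differed. Tagln and Acta2, which myofibroblasts also express, had the largest rises (log2 3.01 and 2.85 in wild type), whereas Myh11, the smooth muscle myosin, did not pass the test (log2 0.48 in wild type and -0.50 in SMOC2-labelled kidney). All 7 fibroblast markers rose in both genotypes, from a summed level of 120.5 to 449.0 CPM in normal to 2409 to 4468 CPM in UUO libraries. Epithelial and immune markers moved as well. All 6 proximal tubule and all 4 loop and distal tubule markers fell in both genotypes, with median log2 changes of -2.84 and -2.34 in wild type and -2.54 and -2.45 in SMOC2-labelled kidney. Injured tubule markers rose in 5 of 5 cases in wild type and 4 of 5 in SMOC2-labelled kidney (medians 5.87 and 5.50), and macrophage markers in 6 of 6 and 5 of 6 (medians 3.81 and 3.94). The summed injured tubule level of normal kidney was 23.1 to 162.0 CPM in wild-type and 278.3 to 359.5 CPM in SMOC2-labelled libraries. In normal kidney 0 of these 5 markers passed the test between labels. The UUO libraries had 1492 to 1929 CPM in wild type and 1817 to 2429 CPM in SMOC2-labelled kidney. The part of these shifts in cell type markers in the rise of Notch3 and Heyl was not tested.

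Of 10 endothelial markers, 5 fell and 0 rose in wild type (median log2 -0.34) and 4 fell and 1 rose in SMOC2-labelled kidney (median log2 -0.22) with TMM scaling, whereas on unscaled library sizes 1 fell and 3 rose (median 0.13) and 1 fell and 4 rose (median 0.28). Kdr, the VEGF receptor gene, fell by 1.25 on the log2 scale in wild type and by 1.14 in SMOC2-labelled kidney, while Pecam1 did not pass the test (log2 0.00 and 0.25). The summed endothelial level was 758.1 to 1038 CPM over normal and 654.7 to 776.2 CPM over UUO libraries. Of 6 arterial markers, 1 rose and 2 fell in wild type (median log2 0.003) and 1 rose and 3 fell in SMOC2-labelled kidney (median log2 -0.43) with TMM scaling, and 3 rose and 1 fell, and 2 rose and 1 fell, on unscaled library sizes. Between genotype labels 0 of the 6 differed in normal kidney. Their summed level, in which Cxcl12 had the largest share, was 222.3 to 350.1 CPM in wild-type normal, 416.7 to 445.7 CPM in SMOC2-labelled normal and 122.7 to 216.1 CPM over all UUO libraries. Dll4 and Notch4, listed above with their intervals, did not pass the test beside these markers, and the part of endothelial content in their values was not tested.

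None of the 10 genes passed the test between genotype labels. In normal kidney 0 of 10 differed between SMOC2-labelled and wild-type libraries, beside 0.0279% of all genes (5 genes). The largest differences were those of Heyl, at -0.33 on the log2 scale (95% interval -0.90 to 0.24, edgeR adjusted p = 0.628), and of Jag2, at 0.18 (95% interval -0.19 to 0.55, edgeR adjusted p = 0.687), and Notch4, also at 0.18 (95% interval -0.32 to 0.69). The difference of Notch3 was -0.15 (95% interval -0.39 to 0.08, edgeR adjusted p = 0.584). In UUO kidney 0 of 10 differed, beside 0.831% of all genes (149 genes). Notch4 had the largest difference there, 0.30 (95% interval -0.13 to 0.74, edgeR adjusted p = 0.519), followed by Heyl at 0.22 (95% interval -0.22 to 0.66, edgeR adjusted p = 0.662), and Notch3 was at -0.08 (95% interval -0.28 to 0.12). Each comparison had 0 of the 10 genes at an unadjusted p under 0.05, in edgeR and in DESeq2.

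The obstruction change was not shown to differ between genotypes. In the interaction of genotype and UUO 0 of 10 genes passed, beside 0.0% of all genes by edgeR, although 1154 genes had an unadjusted p under 0.05 and DESeq2 called 25, none of them among the 10. For Heyl the change was larger by 0.55 on the log2 scale in SMOC2-labelled kidney, with a 95% interval from -0.17 to 1.27 (edgeR adjusted p = 0.812). That interval leaves room for no difference and for a 2.405-fold larger rise. For Notch3 the difference was 0.08 (95% interval -0.24 to 0.39), and for Hes1 -0.15 (95% interval -0.56 to 0.27). The other 7 genes had differences of -0.14 to 0.12.

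Libraries of a group were not alike in the 10 genes. SMOC2-labelled UUO library 4 had the lowest level of its group in 7 genes (Notch3, Jag1, Jag2, Dll4, Hes1, Hey1 and Heyl) and the highest in 0. Wild-type UUO library 4 had the lowest of its group in 5 genes (Notch2, Notch3, Jag2, Hes1 and Heyl) and the highest in 0. Wild-type normal library 2 had the lowest of its group in 7 genes, all 4 receptors among them, and wild-type normal library 3 the highest in 5, again with all 4 receptors. Leaving out any 1 of the 14 libraries kept Notch3 and Heyl past the threshold in both UUO comparisons, with changes of 0.69 to 0.89 and 1.84 to 2.19 in wild type and of 0.79 to 0.91 and 2.45 to 2.73 in SMOC2-labelled kidney.

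The other genes of the pathway changed about as often as genes at large. Of 70 further pathway genes 63 were tested. In wild type 26 rose and 17 fell, or 68.3% of those tested, and in SMOC2-labelled kidney 26 rose and 14 fell, or 63.5%, beside the 61.1% and 62.8% of all genes given above. On unscaled library sizes 40 rose and 6 fell in wild type and 45 rose and 6 fell in SMOC2-labelled kidney, so these counts, and those by role below, are relative to the TMM scaling.

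**Figure D4:**
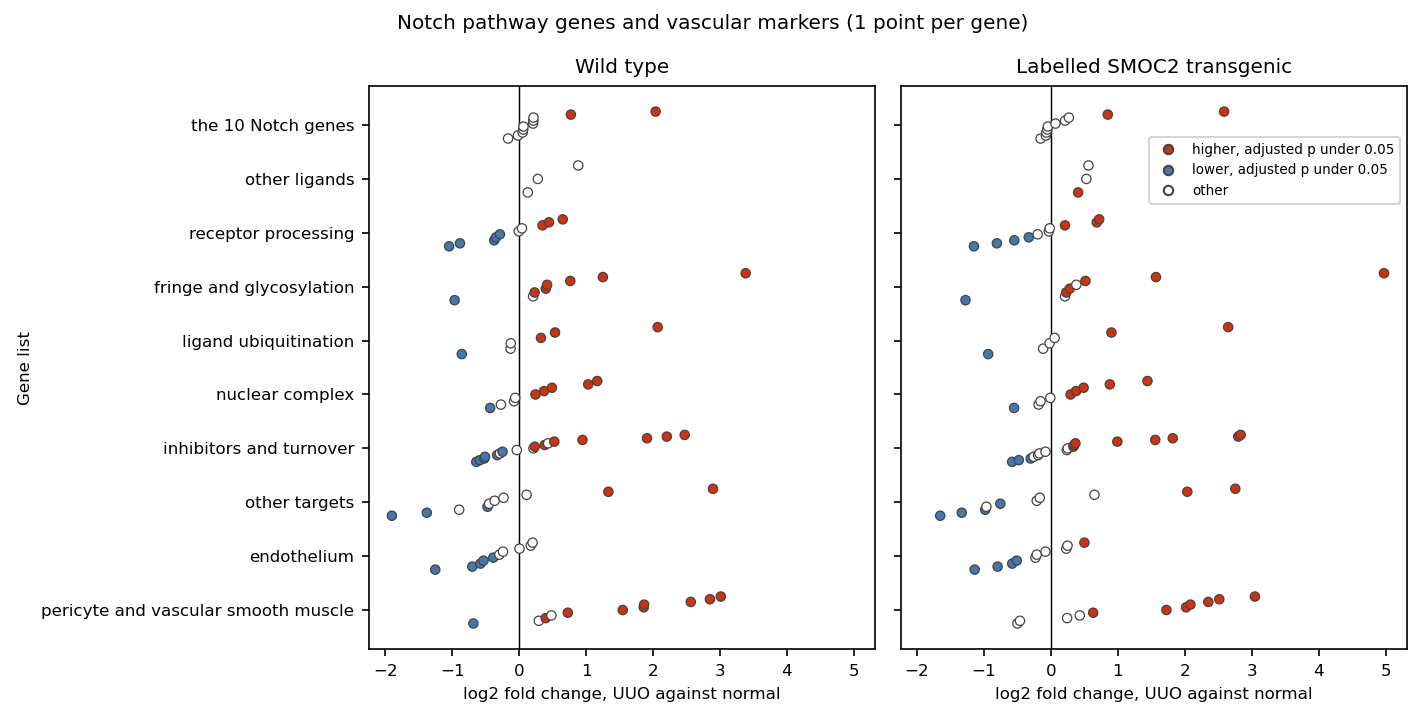
Log2 fold change of UUO against normal kidney (x axis) for the 10 Notch genes, 7 lists of other pathway genes, and endothelial and pericyte or smooth muscle markers (y axis), 1 point per gene tested, in wild-type and SMOC2-labelled kidney on TMM-scaled library sizes. Red points rose and blue points fell at an edgeR adjusted p under 0.05, and white points did not pass; in each genotype 2 of the 10 Notch genes are red (9 and 7 would be on unscaled library sizes), and the fringe and glycosylation list reaches the highest value.

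Genes that make or modify the receptor moved in both directions. Of 10 receptor-processing genes, 3 rose and 5 fell in wild type and 3 rose and 4 fell in SMOC2-labelled kidney. Adam10 and Adam17, the proteases that shed the receptor's outer part, rose (log2 0.45 and 0.65 in wild type, 0.72 and 0.69 in SMOC2-labelled kidney). Furin, which cuts the receptor as it matures, fell by 0.88 and 0.81, and Aph1c, a gamma-secretase subunit, by 1.05 and 1.149. Of 8 fringe and glycosylation genes, 6 rose and 1 fell in wild type and 5 rose and 1 fell in SMOC2-labelled kidney. Lfng, a glycosyltransferase that alters which ligands the receptor answers to, went from 9.70 ± 2.26 CPM (SD, n = 3) to 23.2 ± 3.38 CPM (SD, n = 4) in wild type (log2 1.25, edgeR adjusted p = 1.60e-05) and rose by 1.57 in SMOC2-labelled kidney. Its relative Rfng went the other way, from 45.9 ± 6.36 CPM to 23.6 ± 2.54 CPM in wild type (log2 -0.96, edgeR adjusted p = 2.04e-05), and fell by 1.27 in SMOC2-labelled kidney. Gxylt2, a xylosyltransferase that extends sugars on the receptor, rose most, from 2.38 ± 0.496 to 24.8 ± 8.42 CPM in wild type (log2 3.38) and from 0.957 ± 0.547 to 29.9 ± 1.77 CPM in SMOC2-labelled kidney (log2 4.98).

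On the ligand side, Dll1 was the only gene of 3 other ligands tested to pass, with a rise of 0.41 in SMOC2-labelled kidney (edgeR adjusted p = 0.0182). That call was lost without SMOC2-labelled normal library 1 (edgeR adjusted p = 0.0656) or library 4 (edgeR adjusted p = 0.0583), and in wild type the change was 0.28 (edgeR adjusted p = 0.0913), which passed with upper-quartile scaling (edgeR adjusted p = 0.0281), on unscaled library sizes (edgeR adjusted p = 0.000414) and without wild-type normal library 1 (edgeR adjusted p = 0.0488) or wild-type UUO library 4 (edgeR adjusted p = 0.0206). Of 6 genes of ligand ubiquitination and uptake, 3 rose and 1 fell in wild type and 2 rose and 1 fell in SMOC2-labelled kidney. Neurl1a, a ubiquitin ligase that acts on ligands, went from 2.404 ± 0.875 to 10.2 ± 2.59 CPM in wild type (log2 2.07) and from 2.07 ± 0.259 to 13.0 ± 2.88 CPM in SMOC2-labelled kidney (log2 2.65). Its relative Neurl1b rose by 0.54 and 0.91, the former lost without wild-type normal library 2 (edgeR adjusted p = 0.0527). Epn1, an endocytic adaptor, fell by 0.86 and 0.94.

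Of 9 genes of the nuclear complex, 5 rose and 1 fell in each genotype. Rbpj, the DNA-binding partner of the receptor, went from 17.96 ± 8.04 to 36.5 ± 10.9 CPM in wild type (log2 1.03, edgeR adjusted p = 0.00315), where the libraries overlapped, and from 15.2 ± 1.62 to 27.9 ± 2.53 CPM in SMOC2-labelled kidney (log2 0.88, edgeR adjusted p = 0.00891). The Mastermind coactivator gene Maml2 rose by 1.17 and 1.44, and Maml1 by 0.37 and 0.29. Kat2b, a histone acetyltransferase, fell by 0.43 and 0.55.

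Inhibitors and turnover genes numbered 17, of which 7 rose and 6 fell in wild type and 8 rose and 3 fell in SMOC2-labelled kidney. Numb, an adaptor that inhibits Notch, fell by 0.51 and 0.48, while its relative Numbl rose from 2.89 ± 0.923 to 16.1 ± 4.57 CPM in wild type (log2 2.47) and from 2.68 ± 0.616 to 18.7 ± 2.79 CPM in SMOC2-labelled kidney (log2 2.80). The Deltex family genes Dtx4 and Dtx3l, which encode ubiquitin ligases, rose by 2.21 and 1.91 in wild type and by 2.83 and 1.82 in SMOC2-labelled kidney. The list of other targets had 10 genes tested, of which 2 rose and 3 fell in wild type and 2 rose and 4 fell in SMOC2-labelled kidney. That list holds relatives of the HES and HEY genes as well as genes with other inputs, and control by Notch was not tested. Myc, a growth regulator with many inputs, rose by 2.90 and 2.75, Ccnd1, a cell cycle regulator, fell by 1.38 and 1.33, and Id1, an inhibitor of basic helix-loop-helix factors that BMP signals induce, fell by 1.90 and 1.65. Hes6, a relative of Hes1, fell by 0.47 and 0.76. On unscaled library sizes the falls of Numb and Hes6 in wild type, and of Kat2b, Hes6 and the gamma-secretase gene Aph1a (log2 -0.55) in SMOC2-labelled kidney, no longer passed, and the values of Aph1a and Kat2b in wild type and of Numb in SMOC2-labelled kidney turned above 0.

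Between genotype labels, 1 of the 63 genes passed. Furin was higher in SMOC2-labelled than in wild-type UUO kidney, at 220.6 ± 19.1 against 162.0 ± 14.5 CPM (SD, n = 4 each; log2 0.45, edgeR adjusted p = 0.0300), beside the 0.831% of all genes given above. This call was lost with only the UUO groups in the fit (edgeR adjusted p = 0.0817) and without SMOC2-labelled UUO library 1, 2 or 3 or wild-type UUO library 1, 3 or 4 (edgeR adjusted p = 0.0583 to 0.101). In normal kidney Furin was also higher under the transgenic label, at 385.6 ± 15.1 against 298.9 ± 13.8 CPM (SD, n = 3 each). No pathway gene passed in normal kidney or in the interaction by edgeR. The Furin difference is therefore not shown to be particular to UUO.

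Nearness of pattern was measured over the 14 libraries as the root mean square difference of log2 CPM, each gene centred on its own mean. The search left out the 10 genes, the 70 other pathway genes and all Gm, Rik, clone, pseudogene and mitochondrial symbols. Among the remaining genes, the nearest to each of the 10 was taken. For Heyl it was Tgfb1i1, with a difference of 0.191 beside a spread of 1.18 (SD) for Heyl itself, and for Notch3 it was Zfp53, with 0.090 beside 0.422. Tgfb1i1 rose by 2.05 in wild type and 2.37 in SMOC2-labelled kidney, close to the 2.04 and 2.59 of Heyl. Zfp53 rose by 0.80 and 0.72, where Notch3 rose by 0.77 and 0.85. Such likeness of the changes follows from choosing the nearest gene over the same libraries and is no separate result. For the genes that did not pass the test the nearest were Mpdz for Notch1 (0.098), Zfyve1 for Notch2 (0.103), Ring1 for Notch4 (0.207), Zfp422 for Jag1 (0.096), Anapc11 for Jag2 (0.120), Llph for Dll4 (0.083), Prickle1 for Hes1 (0.114) and Sec24b for Hey1 (0.135), and there the gene's own spread was small as well.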

How the data were processed

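Total RNA of frozen kidney gave 14 messenger RNA libraries by a strand-marking kit, per the labels' protocols. The deposited files hold raw read counts per Ensembl gene, with no normalization by the authors. STAR 2.4.1d, featureCounts 1.4.4 of Subread and build mm10 are named in the submitters' processing notes, while strand setting and annotation were not given there. Symbols, coordinates and exon lengths came from GENCODE M21 (GRCm38): 47310 identifiers matched, and the other 419 held 0.0288% of counts.

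Genes were filtered by filterByExpr, counts scaled by TMM factors, and group means fitted to all 14 libraries with edgeR 4.0.16 (R 4.3.3, glmQLFit and glmQLFTest). Adjustment was by Benjamini-Hochberg over 17926 genes, and rose, fell or changed means an adjusted p under 0.05. The 5 comparisons were UUO against normal in each genotype, genotype in each state, and their interaction. The alternatives were other scalings, no filter, at least 50 counts in 3 libraries, DESeq2 1.42.0, a replicate block, a fit of only the compared groups, and leaving out each library. For the tests, unscaled library sizes were added after the data were seen. The steps were tested on simulated data.

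All 10 genes may be named, as may up to 4 genes per pathway list with the smallest p per UUO comparison, any pathway gene that passed between genotypes, the nearest pattern to each of the 10, and cell type markers. The members and lists were chosen with earlier results of these data known. Replicates of a group differed by more than counting noise (chi-square per degree of freedom 16.9 or more). The correlation r of deviations from the group mean was computed between libraries of different groups. Same-numbered libraries had r of -0.28 to 0.30 (median 0.04), and other pairs -0.34 to 0.33 (median -0.03). Between the 2 UUO groups the same-numbered r was 0.30, -0.002, 0.14 and 0.30 for numbers 1, 2, 3 and 4. The labels state no pairing, so the main fit took none, and the replicate block was run as an alternative.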

Additional observations from a re-analysis of the deposited data

Results flagged for a closer look

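Hes1 in wild-type UUO library 3 was at 50.6 CPM, apart from the other 3 libraries of its group at 37.5 to 39.2 CPM, with a gap of 0.871 of the group's range, above Dixon's 95% critical value for 4 libraries. Hes1 in SMOC2-labelled UUO library 4 was at 32.3 CPM, below the other 3 at 43.3 to 45.3 CPM, with a gap of 0.851 of the range. Without the former the wild-type change of Hes1 was 0.10 on the log2 scale in place of 0.21 (edgeR adjusted p = 0.514), and without the latter the SMOC2-labelled change was 0.17 in place of 0.07 (edgeR adjusted p = 0.263). In all, 20 groups of 4 libraries were examined, and chance flags about 1 in 20.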

How the results depend on the processing

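Notch3 and Heyl kept their direction and their side of the threshold in both UUO comparisons under every alternative run. Of the 10 genes, 9 changed in wild type and 7 in SMOC2-labelled kidney on unscaled library sizes, in place of 2 each. The genotype counts over all genes were less stable. In normal kidney the 5 genes became 12 with no filter, 172 with DESeq2, 8 on unscaled library sizes, 8 with only the groups compared and 4 to 21 with a library left out. In UUO kidney the 149 became 757 with DESeq2, 69 with the replicate block, 39 with only the groups compared and 29 to 158 with a library left out. In the interaction the 0 became 1 with no filter, 25 with DESeq2, 1 with the replicate block and 0 to 2 with a library left out. With the replicate block 2 of the 10 genes still changed in each UUO comparison, and 0 elsewhere.

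Small log2 changes turned sign. In wild type Notch4 was 0.30, Jag2 0.46, Aph1a 0.10 and Kat2b 0.033 on unscaled library sizes, and Jag2 was 0.10 with upper-quartile factors and 0.048 with the replicate block. In SMOC2-labelled kidney unscaled library sizes gave Notch2 0.45, Notch4 0.45, Jag2 0.35, Dll4 0.43, Hey1 0.43 and Numb 0.021, and upper-quartile factors gave Notch2 0.063, Notch4 0.067, Dll4 0.041 and Hey1 0.047. With a library left out, wild-type changes ran from -0.091 to 0.17 for Notch2, -0.30 to 0.048 for Notch4, -0.096 to 0.068 for Jag2, -0.054 to 0.18 for Dll4 and -0.069 to 0.22 for Hey1. Those in SMOC2-labelled kidney ran from -0.15 to 0.076 for Notch2, -0.22 to 0.26 for Notch4, -0.15 to 0.029 for Dll4, -0.021 to 0.17 for Hes1 and -0.15 to 0.009 for Hey1. The genotype difference of Hey1 in UUO ran from -0.18 to 0.008, and the Notch3 interaction from -0.035 to 0.17.

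The summed level of the 10 genes was 320.4 CPM in wild-type normal, 330.0 in SMOC2-labelled normal, 384.3 in wild-type UUO and 392.3 in SMOC2-labelled UUO kidney, and 269.0, 268.0, 446.3 and 450.5 on unscaled library sizes. The cause of these shifts was not tested beyond the settings named. Hey1, with 24 to 60 counts per library, did not pass the filter of 50 counts in 3 libraries. The interaction needs all groups, so it has no value with only the groups compared.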
